A study of Canis lupus familiaris with 34 samples.

Results

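Osteoblast differentiation and mineral matrix genes were followed in osteosarcoma of the dog, a bone cancer whose cells can lay down osteoid. The set was a fixed list of 9 gene symbols: the transcription factors RUNX2, SP7 and DLX5, the membrane proteins ALPL and PTH1R, the matrix proteins SPP1, IBSP and BGLAP, and the endopeptidase PHEX. The array annotation gave 8 of the 9 genes at least 1 probe set, 16 in all. SP7 had none and was not analysed here. RUNX2 had 5 probe sets, ALPL, SPP1, BGLAP and PHEX had 2 each, and DLX5, PTH1R and IBSP had 1 each. A filter on dim probe sets, which asked for a log2 intensity over 5 on at least 3 arrays, passed 7 of the 9 genes and left out PHEX. Over the whole array 7849 genes passed the same filter and were tested.

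Bone-forming cells mature in stages. RUNX2, the runt-domain factor without which no osteoblasts form in mice, and SP7 (osterix), which acts downstream of it, commit the cell, and the homeobox factor DLX5 acts with them. Maturing osteoblasts then carry alkaline phosphatase (ALPL), which frees phosphate for mineral, and the parathyroid hormone receptor PTH1R. The acidic matrix proteins osteopontin (SPP1) and bone sialoprotein (IBSP) and the late protein osteocalcin (BGLAP) enter the matrix as it mineralises, and PHEX, an endopeptidase of osteoblasts and osteocytes, is the gene mutated in X-linked hypophosphataemia.

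The samples were lines derived from metastases (3 dogs), lines derived from primary osteosarcomas (24 dogs, 25 arrays) and snap-frozen primary osteosarcoma tissue (6 dogs), from 31 dogs in all. Both line arrays of dog 22 were averaged into 1 line, called primary line 19. Dogs 22 and 23 gave both a line and a tissue. No genotype was labelled. Treatment labels of the dogs were SOC, PALL, AMP and ABX, codes that the labels do not spell out. In the metastatic lines 1 array had SOC and 1 PALL. In the primary lines 11 arrays had SOC, 3 had SOC marked as a death before chemotherapy began or ended, 3 had AMP, 2 had PALL and 1 had ABX, and 3 tissues had SOC. The other arrays had none. Among these were the second line array and the tissue of dog 22, whose first line array had SOC. The metastatic lines came from 2 Rottweilers and a dog of another breed, with age labels of 2.39 to 6.31. The primary lines came from 7 labelled breeds, among them 10 Rottweilers and 7 Golden Retrievers, with age labels of 2 to 11.19. The tissues came from 4 breeds, with age labels of 2.67 to 11.91, and no unit of age was given. The labels do not give the passage of a line, nor whether it was cloned. The labels describe the line material as tumour cells or as cultured cells that had been frozen, without saying which array held which. All dogs of a group were separate animals.

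Values are log2 of deposited GCRMA intensity, and differences are log2 differences. A log2 value over 5 is called detected. Brightness depends on the probes, so levels were compared between samples for 1 gene and not between genes. Precision is limited by how many arrays a group had, as arrays have no depth. The metastatic and primary lines had array medians of 8.108 to 8.398 and 8.11 to 8.54 in linear intensity, and the tissues 8.31 to 8.71. The 3′ minus 5′ difference of actin, which widens as RNA degrades, was 1.74 ± 1.91 in metastatic lines (SD, n = 3), 1.42 ± 0.96 in primary lines (n = 24) and 2.59 ± 1.15 in tissues (n = 6). Its part in the results was not tested. Titles carried 1 of 3 prefixes, treated as possible batches. Lines and tissues met in title prefix 3 alone, which held 2 lines and all 6 tissues, and its values are given beside the group results.

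Primary lines 4 and 7 and metastatic line 3 stood apart from the other lines in markers outside the set. CDH11, a cadherin of osteoblasts and other mesenchymal cells, was at 5.49 in primary line 4, 3.07 in primary line 7 and 6.80 in metastatic line 3, where the median of the 24 primary lines was 13.15 and the tissues spanned 12.77 to 13.66. Primary line 4 also carried the endothelial adhesion protein PECAM1 at 13.88, against a median of 2.52 over the primary lines and 9.96 to 14.06 in tissues. Type I collagen was bright in all 3 lines. COL1A1 read 11.88 in primary line 4, 13.87 in primary line 7 and 13.40 in metastatic line 3, and 13.56 to 14.30 in the 6 tissues. Primary line 4 was the lowest of the primary lines, whose COL1A1 median was 13.79. It was also the lowest in COL1A2, at 11.13, against a median of 14.51 over the primary lines and 14.54 to 14.85 in tissues. Group results are given with these primary lines and, where they differ, without them.

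The comparison of lines with tissues asked how the levels of these genes in cultured osteosarcoma cells stood beside those in tumour tissue. Primary lines were lower than tissues in 5 genes, DLX5, ALPL, PTH1R, SPP1 and IBSP. RUNX2 and BGLAP were not called. That made 5 of 7 tested genes lower, where 9.06% of all genes tested were lower in primary lines by the same rule, an adjusted p under 0.05 in limma and a change of at least 2-fold. IBSP, detected in no line, passed the filter on dim probe sets through the tissues alone. Its place among the 7 tested genes thus came from the group where it was high. The median difference over the 7 genes was -6.21, beside -0.05 over all genes tested. Metastatic lines were lower in the same 5 genes, with a median of -7.02 over the 7 genes and -0.01 over all genes, and 4.59% of all genes were called lower there. Both comparisons share the 6 tissues, so they are not independent. In bulk samples fewer cells of a type and less RNA per cell cannot be told apart.

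**Figure D1:**
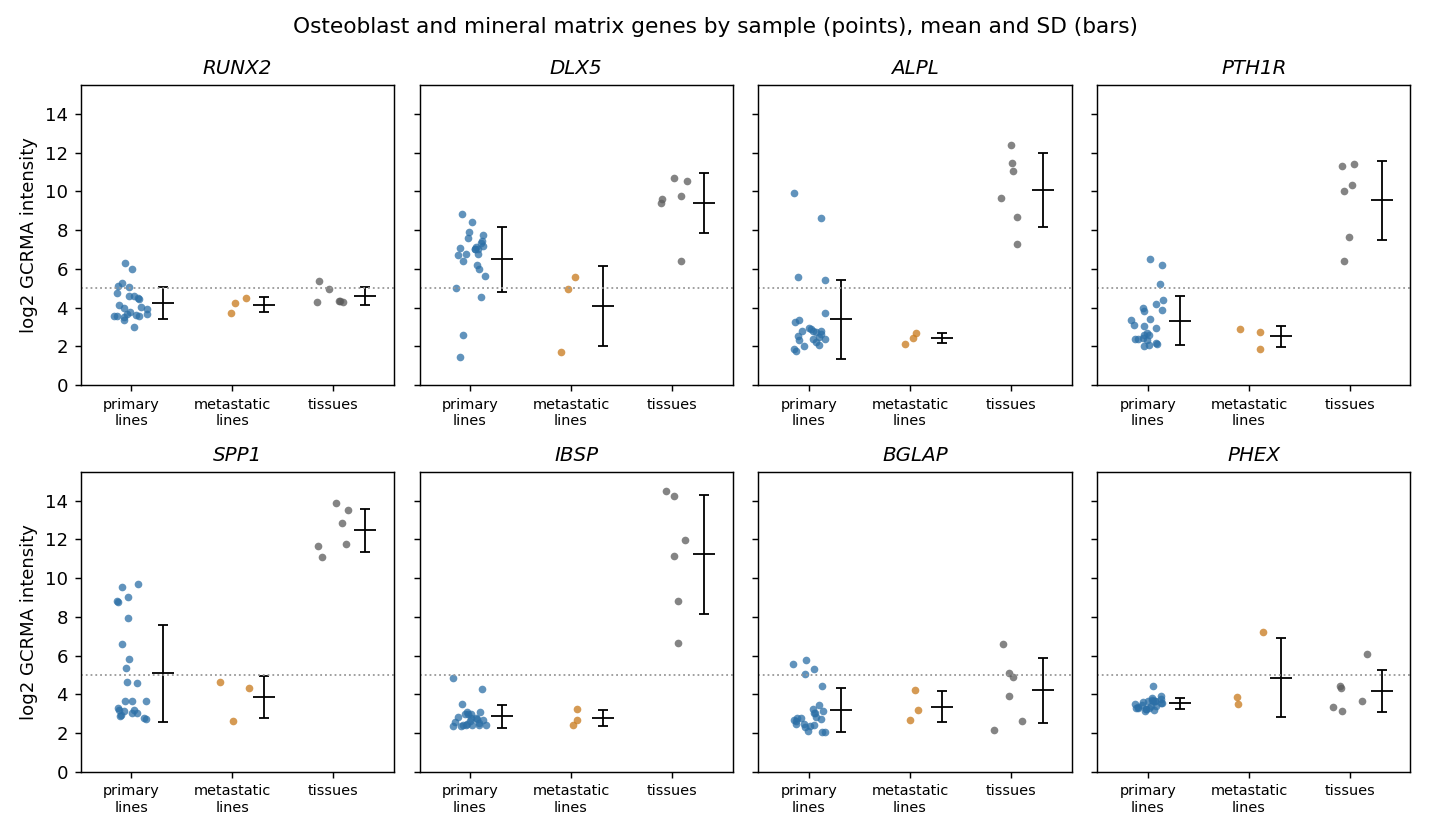
Each panel plots log2 GCRMA intensity (y axis) of 1 gene in primary lines, metastatic lines and tissues (x axis), with a point per line or tissue, the mean with its SD as a bar, and a dotted line at the detection level of log2 5. All tissue points of SPP1 and IBSP lie above every line point, DLX5 keeps most primary lines over the dotted line, and RUNX2 and BGLAP overlap between groups.

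RUNX2, the earliest factor of the set that could be measured, was dim in every group. It was at 3.73 to 4.51 in the 3 metastatic lines, ran from a lowest of 3.01 through a median of 4.01 to a highest of 6.28 in the 24 primary lines, and was at 4.26 to 5.38 in the 6 tissues. The groups overlapped: 10 of 24 primary lines and 1 of 3 metastatic lines were at or above the lowest tissue. It was detected in 0 of 3 metastatic lines, 5 of 24 primary lines and 1 of 6 tissues. Primary lines differed from tissues by -0.35 (SE 0.34, 95% interval -1.04 to 0.34, adjusted p = 0.492 in limma), and metastatic lines by -0.44 (SE 0.53, adjusted p = 0.663). Within title prefix 3 the primary difference was -0.61 (adjusted p = 0.399). A signal this close to background says little of the RUNX2 level itself. Its other 4 probe sets were dimmer still, with group means from 1.69 to 3.46. In a fit over 42860 probe sets without a filter, 3 of those 4 were lower in primary lines at an adjusted p under 0.05, by -0.69, -0.65 and -0.32, each under 2-fold. The gene table used here did not list the gene identifier of those 3 probe sets.

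The primary lines with the most RUNX2 were line 25 at 6.28, line 12 at 5.98, line 2 at 5.25, line 10 at 5.10 and line 6 at 5.05. The level in lines 25 and 12 exceeded the brightest tissue, tissue 5, at 5.38.

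DLX5, the homeobox factor, read 4.98, 5.58 and 1.73 in metastatic lines 1, 2 and 3. In primary lines it ran from 1.47 through a median of 7.02 to 8.84. The tissues read 9.39, 6.39, 9.77, 10.69, 10.55 and 9.63 in the order of tissues 1 to 6. Tissue 2 lay far under the other 5, and the overlap of lines and tissues came from it: 17 of 24 primary lines were at or above tissue 2, while the brightest, line 24 at 8.84, stayed under every other tissue. Primary lines averaged 6.50 ± 1.69 (SD, n = 24) and tissues 9.40 ± 1.57 (n = 6), a difference of -2.91 (SE 0.75, 95% interval -4.43 to -1.39, adjusted p = 0.00481 in limma). DLX5 was detected in 21 of 24 primary lines, and lines 7 (1.47), 4 (2.56) and 8 (4.57) were the exceptions. Without lines 4 and 7 the difference was -2.50 (adjusted p = 0.00102).

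The DLX5 call was not kept in the fits that took title prefix into account. Within title prefix 3, where line arrays 22 and 23 met the 6 tissues, the difference was -2.30 (SE 1.00, adjusted p = 0.238), and a covariate for title prefix gave the same size with an adjusted p of 0.295. Both fits take the difference from those 2 line arrays, and no effect of the prefix itself was tested. DLX6, which neighbours DLX5 on the chromosome with no protein-coding gene between them, differed by -2.65 in primary lines (SE 0.55, adjusted p = 0.000562) and was detected in 1 of 24 primary lines and 3 of 6 tissues.

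ALPL, the alkaline phosphatase, was dim in most lines and bright in a few. Metastatic lines 1 to 3 read 2.70, 2.14 and 2.43. The primary lines ran from 1.74 through a median of 2.76 to 9.90, and the tissues read 8.68, 7.29, 11.46, 11.03, 9.64 and 12.41. Every tissue was bright, and only 4 of 24 primary lines were detected. Of those, line 25 at 9.90 and line 18 at 8.65 lay inside the tissue range, whereas line 12 at 5.57 and line 6 at 5.45 lay under it. Primary lines averaged 3.40 ± 2.05 (SD, n = 24) and tissues 10.09 ± 1.91 (n = 6), a difference of -6.69 (SE 0.86, adjusted p = 4.09e-07). Metastatic lines differed from tissues by -7.66 (SE 1.33, adjusted p = 0.000178). A fold against lines at background is a lower bound, and raising each dim line to log2 5 gave a level at least 33.96-fold lower in metastatic lines than in tissues. The primary difference within title prefix 3 was -7.70 (adjusted p = 0.017).

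A second ALPL probe set told the same direction with a smaller size, -3.40 (SE 0.60, adjusted p = 0.00014 over all probe sets), and was detected in 1 of 24 primary lines and 4 of 6 tissues. The line arrays of dog 22 disagreed on ALPL: array 19 read 5.62 and array 22 read 1.85, a gap of 3.77. Over all genes the median gap between these 2 arrays was 0.556 and 2.23% of genes differed by more than 3. The ALPL reading of that line is therefore given as the mean, 3.74, and counted as not detected.

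PTH1R, the receptor through which parathyroid hormone acts on osteoblasts, followed a like course. Metastatic lines 1 to 3 read 2.76, 1.88 and 2.88, the primary lines ran from 2.03 through a median of 2.995 to 6.53, and the tissues read 7.66, 6.42, 11.32, 10.33, 10.03 and 11.43. It was detected in 0 of 3 metastatic lines, 3 of 24 primary lines and 6 of 6 tissues. Line 18 at 6.53 was the 1 primary line at or above the lowest tissue, tissue 2, and lines 12 at 6.21 and 24 at 5.21 followed. Primary lines differed from tissues by -6.21 (SE 0.61, adjusted p = 1.48e-09) and metastatic lines by -7.02 (SE 0.95, adjusted p = 2.61e-06), the metastatic level being at least 23.1-fold lower. The SD of PTH1R was 1.26 in primary lines and 2.04 in tissues, and the pooled spread of the fit understates that of the tissues. Within title prefix 3 the primary difference was -5.57 (SE 1.30) with an adjusted p of 0.0594, and a covariate for title prefix left the call in place (adjusted p = 0.000873).

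SPP1, osteopontin, separated lines from tissues without overlap and was detected in part of the primary lines. Metastatic lines 1 to 3 read 4.31, 4.62 and 2.64. The primary lines ran from 2.74 through a median of 3.67 to 9.68, and the tissues read 11.79, 11.65, 13.89, 11.10, 12.84 and 13.51. The brightest line, line 5, stayed under the dimmest tissue, tissue 4. SPP1 was detected in 0 of 3 metastatic lines, 9 of 24 primary lines and 6 of 6 tissues. The 9 lines were line 5 at 9.68, line 14 at 9.57, line 9 at 9.01, line 6 at 8.80, line 2 at 8.78, line 23 at 7.96, line 18 at 6.62, line 3 at 5.80 and line 17 at 5.38. Those values run from just over the detection level to near the tissues.

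Primary lines averaged 5.08 ± 2.51 for SPP1 (SD, n = 24) and tissues 12.46 ± 1.12 (n = 6), a difference of -7.38 (SE 0.99, adjusted p = 9.61e-07). Metastatic lines differed from tissues by -8.61 (SE 1.54, adjusted p = 0.00026) and were at least 177-fold lower. In females alone, with 1 metastatic line, that difference was -8.00 and lost its call (adjusted p = 0.139). The second SPP1 probe set was lower in primary lines by -5.60 (adjusted p = 2.77e-06 over all probe sets). Within title prefix 3 the first probe set differed by -7.27 (adjusted p = 0.0251). Macrophages and osteoclasts also make osteopontin, and markers of both are given beside it. The 12 measured monocyte and macrophage genes were all called lower in primary lines, where 9.06% of all genes tested were lower. Many of the 12, C1QA among them, were detected in no line and passed the filter on dim probe sets through the tissues alone. Their place in the test thus came from the group where they were high. The mean over the list was 2.37 to 2.67 in metastatic lines, 2.32 to 4.48 in primary lines and 7.50 to 10.16 in tissues. None of the 12 was detected in a metastatic line, and 10 to 12 of them were detected in each tissue. The 5 measured osteoclast genes had a mean of 5.35 to 6.31 in metastatic lines, 4.65 to 7.10 in primary lines and 8.49 to 10.90 in tissues. Of the 5, 3 were called lower in primary lines. CTSK, at 13.02 in primary lines and 13.28 in tissues, and ITGB3, at 3.51 and 3.54, were not called. The part of either list in the SPP1 difference was not tested. In the 9 primary lines with SPP1 detected the macrophage list mean was 2.33 to 3.39, 7 of these lines had none of the 12 genes detected and none had more than 1. Among all primary lines only lines 4, 5, 13 and 14 had any of the 12 detected, so this was not particular to the SPP1 lines. In the same 9 lines the osteoclast list mean was 4.70 to 6.98, beside a median of 5.08 over all primary lines. It was highest in line 5, the brightest for SPP1, where 4 of the 5 osteoclast genes were detected. Line 14, the next brightest for SPP1, had a mean of 5.54. Primary line 4 had the highest mean of all primary lines, 7.10, also with 4 genes detected, and its SPP1, at 4.63, was not detected.

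IBSP, bone sialoprotein, was detected in no line. Metastatic lines 1 to 3 read 3.26, 2.43 and 2.67. The primary lines ran from 2.35 through a median of 2.68 to 4.84, and the tissues read 11.99, 6.67, 14.26, 11.14, 8.84 and 14.50. The tissues themselves spread widely, and yet the dimmest, tissue 2, stood above the brightest line, line 2 at 4.84, with line 5 next at 4.28. Primary lines averaged 2.86 ± 0.61 (SD, n = 24) and tissues 11.23 ± 3.06 (n = 6), a difference of -8.38 (SE 0.60, adjusted p = 6.27e-13). The fit pools the spread of all groups, mostly that of the 24 dim lines. Its SE and p for IBSP therefore understate the wider spread between tissues. Metastatic lines differed from tissues by -8.45 (SE 0.93, adjusted p = 4.78e-08). With all lines dim, the level was at least 75.2-fold lower in metastatic lines and at least 75.2-fold lower in primary lines than in tissues, the same figure because every line was set to log2 5. Within title prefix 3 the difference was -8.89 (adjusted p = 0.0463).

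SPP1 and IBSP lie in the same chromosomal neighbourhood, with MEPE the only protein-coding gene between them in the dog gene table. MEPE, another matrix phosphoprotein of this cluster, reached at most 2.65 in metastatic lines, 2.88 in primary lines and 2.93 in tissues, and DMP1, a further relative that marks osteocytes, reached 3.41 in metastatic lines, 3.40 in primary lines and 9.26 in the brightest tissue. Both failed the filter on dim probe sets and were not tested.

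BGLAP, osteocalcin, was dim and overlapped throughout. Metastatic lines 1 to 3 read 2.66, 4.22 and 3.21, the primary lines ran from 2.04 through a median of 2.77 to 5.78, and the tissues read 2.14, 2.62, 5.11, 3.89, 4.91 and 6.61. It was detected in 0 of 3 metastatic lines, 4 of 24 primary lines and 2 of 6 tissues. Primary lines differed from tissues by -1.02 (SE 0.54, 95% interval -2.12 to 0.09, adjusted p = 0.18) and metastatic lines by -0.85 (SE 0.84, adjusted p = 0.598), so neither was called. The primary difference within title prefix 3 was -1.497 (adjusted p = 0.458). The interval holds both no difference and a level 4-fold lower in primary lines. Lines 20 (5.78), 5 (5.57), 9 (5.30) and 10 (5.05) were over log2 5, and all 4 stayed under tissue 6.

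PHEX, the endopeptidase of X-linked hypophosphataemia, was near background in all but 2 samples. Metastatic line 1 read 7.22 and tissue 3 read 6.11, and the second PHEX probe set placed the same samples on top at 7.31 and 6.02. The other metastatic lines were at 3.51 and 3.87, the primary lines at 3.11 to 4.41 and the other 5 tissues at 3.12 to 4.41. Over all probe sets without a filter the primary lines differed from tissues by -0.63 (adjusted p = 0.182) and -0.999 (adjusted p = 0.153), and the metastatic lines from primary lines by 1.34 (adjusted p = 0.527) and 1.85 (adjusted p = 0.595). Of the 3 metastatic lines only line 1 was high.

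**Figure D2:**
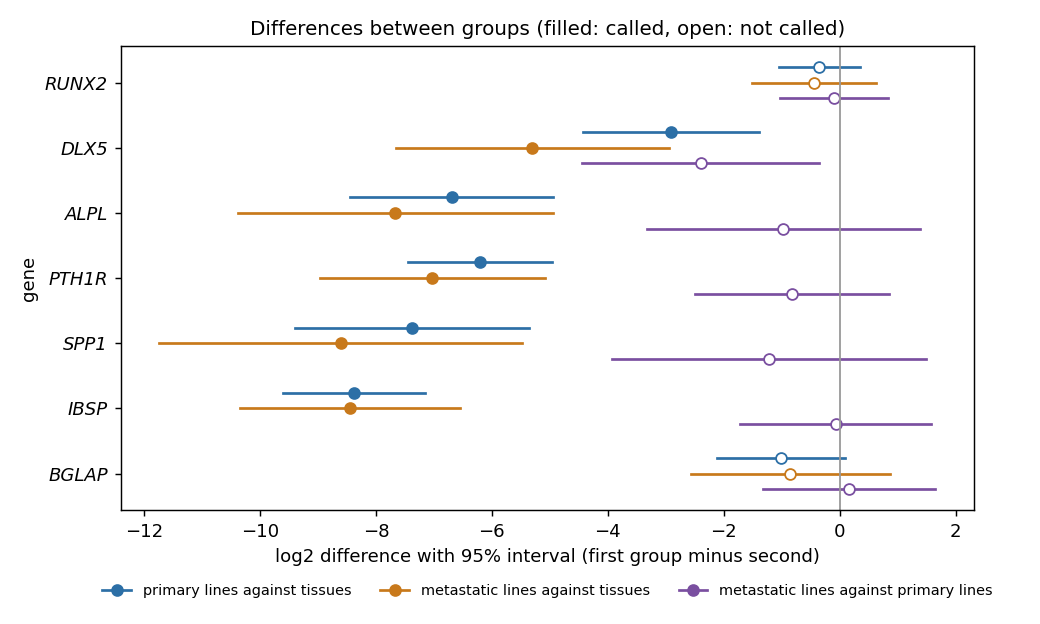
The log2 difference (x axis) of each tested gene (y axis, RUNX2 at the top) is plotted with its 95% interval for primary lines against tissues, metastatic lines against tissues and metastatic lines against primary lines, with filled points for called genes. DLX5, ALPL, PTH1R, SPP1 and IBSP lie left of 0 in both comparisons with tissues, and every point between metastatic and primary lines is open.

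The difference between metastatic and primary lines was called for none of the 7 genes in limma, where 0.0127% of all genes, 1 gene, passed an adjusted p under 0.05. At an unadjusted p under 0.05 the count was 1 of the 7 genes and 534 of all genes. The 1 was DLX5, at 4.10 ± 2.07 in metastatic lines (SD, n = 3) and 6.50 ± 1.69 in primary lines (n = 24). That difference of -2.40 (SE 1.00, 95% interval -4.44 to -0.36) had an adjusted p of 0.632. Within title prefix 2, which held all 3 metastatic lines and 19 primary lines, it was -2.54 (adjusted p = 0.564). The direction held in all settings tried, from -3.14 to -1.01, and the lowest adjusted p among them was 0.0966, without primary lines 4 and 7. Metastatic line 3 had been set apart together with those 2 lines, and without it the difference shrank to -1.22.

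For the other 6 genes the intervals of the metastatic difference spanned 0. They ran from -3.32 to 1.38 for ALPL, from -3.93 to 1.48 for SPP1, from -1.71 to 1.57 for IBSP and from -1.32 to 1.65 for BGLAP. For these genes that leaves room for changes of more than 2-fold either way. The intervals of RUNX2 (-1.02 to 0.83) and PTH1R (-2.49 to 0.86) hold a fall of more than 2-fold but no such rise. ALPL, PTH1R, SPP1 and IBSP were detected in none of the 3 metastatic lines, and IBSP in none of the primary lines either. Against tissues, DLX5 was lower in metastatic lines by -5.31 (SE 1.16, adjusted p = 0.00252). Without metastatic line 3, which read 1.73, it was -4.12 (adjusted p = 0.0512) and lost its call. A covariate for title prefix also ended the call, at -4.84 (adjusted p = 0.119).

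The genes are given here in the order of osteoblast maturation. Of 24 primary lines, RUNX2 was detected in 5, DLX5 in 21, ALPL in 4, PTH1R in 3, SPP1 in 9, IBSP in 0, BGLAP in 4 and PHEX in 0. The same counts in the 6 tissues were 1, 6, 6, 6, 6, 6, 2 and 1. For the 5 genes that all tissues carried, the count was 21 for DLX5, 9 for SPP1, 4 for ALPL, 3 for PTH1R and 0 for IBSP. A fixed detection level does not mean the same for different probes, so these counts give no order of loss. The second probe sets gave 7 lines for SPP1 and 1 for ALPL. Read against each gene's own tissues, the primary lines at or above the lowest tissue were 17 for DLX5, 2 for ALPL, 1 for PTH1R, 0 for SPP1 and 0 for IBSP. The 17 for DLX5 rested on tissue 2, at 6.39. The brightest line, at 8.84, stayed under every other tissue. Such counts hang on the lowest tissue of 6 and give no order of loss either. At detection levels of log2 4, 6 and 7, DLX5 was over the level in 22, 19 and 13 lines, SPP1 in 11, 7 and 6, ALPL in 4, 2 and 2, PTH1R in 5, 2 and 0 and IBSP in 2, 0 and 0. No time series was labelled, so these counts compare lines and follow none over time. Differences were not ordered by size across genes, since lines near background make each difference a lower bound and the probes differ in response, and unequal change was not tested.

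**Figure D3:**
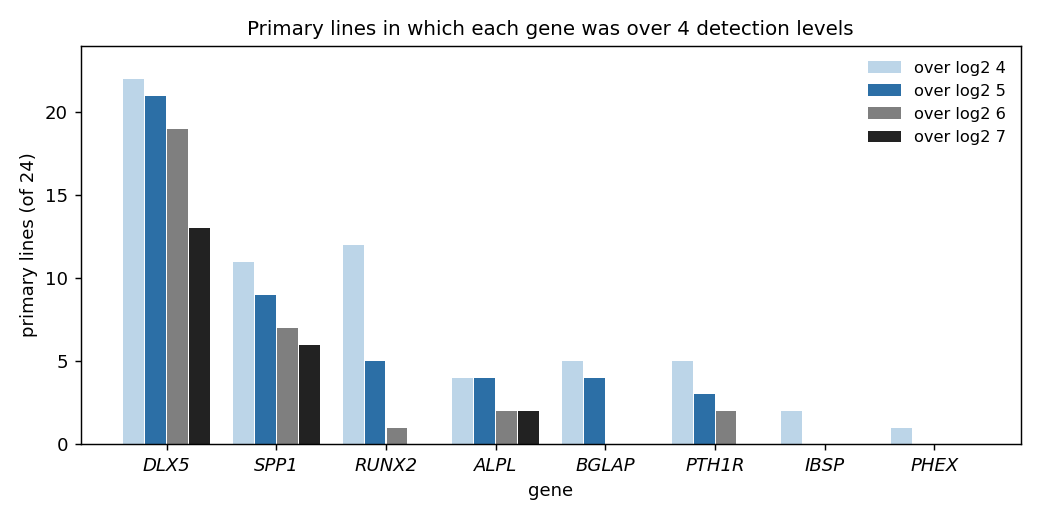
Bars count the primary lines (y axis, of 24) in which each gene (x axis) was over log2 4, 5, 6 and 7. DLX5 has 13 lines and SPP1 6 lines over log2 7, and IBSP has 2 lines over log2 4 and none above it.

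None of the 8 measured genes was detected in 3 of 24 primary lines, 1 in 7, 2 in 6, 3 in 5 and 4 in 3 lines, whereas the tissues had 5 to 7. The metastatic lines had 1, 1 and 0. Primary lines 6, 12 and 18 held 4 genes each. Line 6 carried RUNX2, DLX5, ALPL and SPP1, line 12 carried RUNX2, DLX5, ALPL and PTH1R, and line 18 carried DLX5, ALPL, PTH1R and SPP1. No line had all 5 genes that every tissue carried.

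ALPL and SPP1 were detected together in lines 6 and 18, which is 50% of the 4 ALPL lines and 22.2% of the 9 SPP1 lines. Over all 24 primary lines 37.5% had SPP1 and 16.7% had ALPL. Line 25, at 9.90 for ALPL, read 2.77 for SPP1, and line 5, at 9.68 for SPP1, read 2.79 for ALPL. ALPL and PTH1R shared lines 12 and 18, 50% of the ALPL lines and 66.7% of the 3 PTH1R lines. RUNX2 was detected in 3 of the 4 ALPL lines (6, 12 and 25). BGLAP shared lines 5 and 9 with SPP1 and none with ALPL or PTH1R. Lines 5 and 9 came from different dogs and had the most alike arrays of all line pairs, at a correlation of 0.979 over all genes tested, with the next pair at 0.978.

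**Figure D4:**
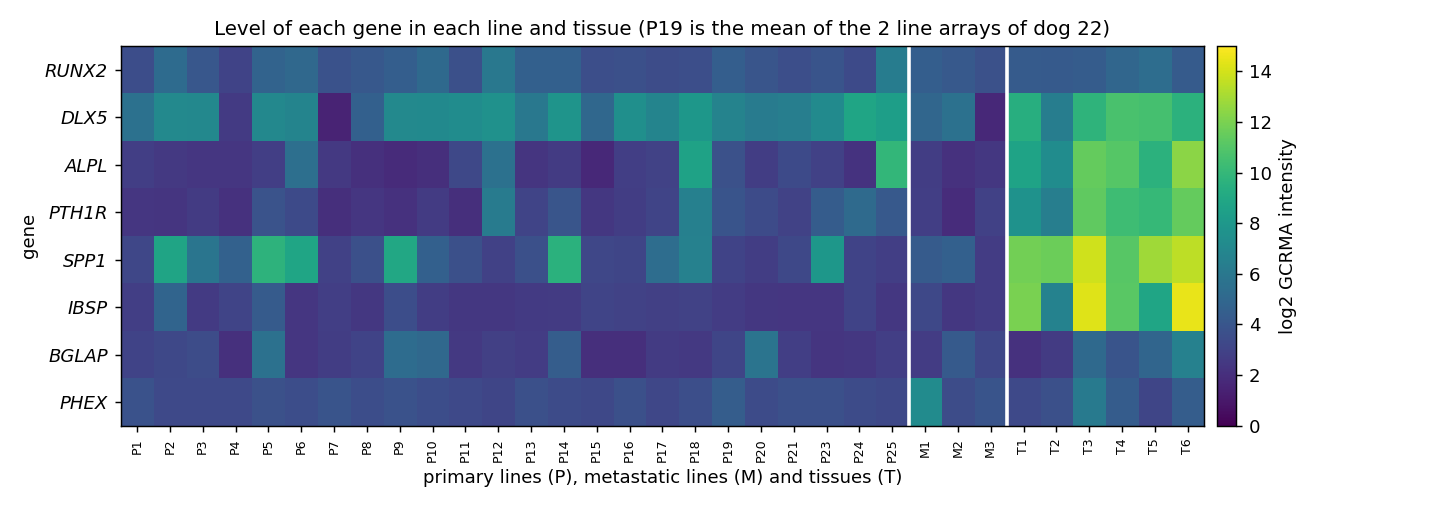
Colour gives the log2 GCRMA intensity of each gene (rows) in each primary line (P), metastatic line (M) and tissue (T) (columns). Among the lines ALPL is brightest in P25 and P18 and SPP1 in P5 and P14, P18 and P6 have both genes over log2 5, and M1 is the bright cell of PHEX.

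The 3 primary lines in which none of the genes was detected were lines 4, 7 and 8, and metastatic line 3 was alike. Lines 4 and 7 were those set apart by CDH11, and OMD, a keratan sulphate proteoglycan of bone, was at 2.33 and 2.24 there against a median of 9.56 over the primary lines. Line 8 had CDH11 at 12.95 and OMD at 10.03, and its DLX5, at 4.57, was just under the detection level. OMD was at 2.10 in metastatic line 3, and also at 2.04 in metastatic line 1, where CDH11 was at 12.79.

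DLX5 and SPP1 were the 2 genes detected in at least 6 primary lines, and no relation between their levels passed the test. Across the 24 lines Pearson's r was 0.25 (permutation p = 0.248) and Spearman's rho 0.15 (permutation p = 0.477), the 1 pair computed. Without the 2 lines farthest from the DLX5 median, lines 4 and 7, r was 0.19 (permutation p = 0.401). Within title prefix 2, 19 lines, it was 0.23 (permutation p = 0.36).

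The genes whose levels ran most like DLX5 across the 24 primary lines were CDH11 (r = 0.81), FAM174B (r = 0.80) and the glypican GPC4 (r = 0.80), picked from all genes tested and given without a test. The likeness of CDH11 rested on lines 4 and 7. Without them CDH11 was at -0.03, FAM174B at 0.45 and GPC4 at 0.67 over 22 lines. For SPP1 they were MAPT (r = 0.73), the membrane-type metalloproteinase MMP16 (r = 0.69) and the hyaluronan synthase HAS2 (r = 0.66). Without lines 4 and 7 they were 0.72, 0.69 and 0.71. Without lines 5 and 9 they were 0.68, 0.66 and 0.57, and their ranks in likeness were then 4, 7 and 18, so none stayed among the 3 most alike. Values of 2 genes in a line come from the same array, or for line 19 the same 2 arrays, and share its background.

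The dogs with both a line and a tissue showed the same directions for the 5 called genes. Their samples were part of the fit that called these genes, so they are no separate support. For SPP1 and IBSP every line lay under every tissue, which fixed the direction within a dog. In dog 23, line 20 read 6.22 for DLX5, 2.74 for ALPL, 3.40 for PTH1R, 2.74 for SPP1 and 2.44 for IBSP, and its tissue 9.63, 12.41, 11.43, 13.51 and 14.50. Line minus tissue was -3.41 for DLX5, -9.67 for ALPL, -8.03 for PTH1R, -10.78 for SPP1 and -12.05 for IBSP. In dog 22 the differences were -3.86, -5.90, -6.14, -9.82 and -6.17 in that order. BGLAP was close in dog 23, with 5.78 in the line and 6.61 in the tissue, and that line was the brightest of all lines for BGLAP. PHEX went opposite ways, with a line minus tissue difference of 1.29 in dog 22 and -0.99 in dog 23, all 4 readings under log2 5. With 2 dogs no test was made. A fit that took dog as a random block, with an estimated correlation of 0.129 between arrays of a dog, gave -2.92 for DLX5 and -8.39 for IBSP in primary lines and changed no call of the 7 genes.

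**Figure D5:**
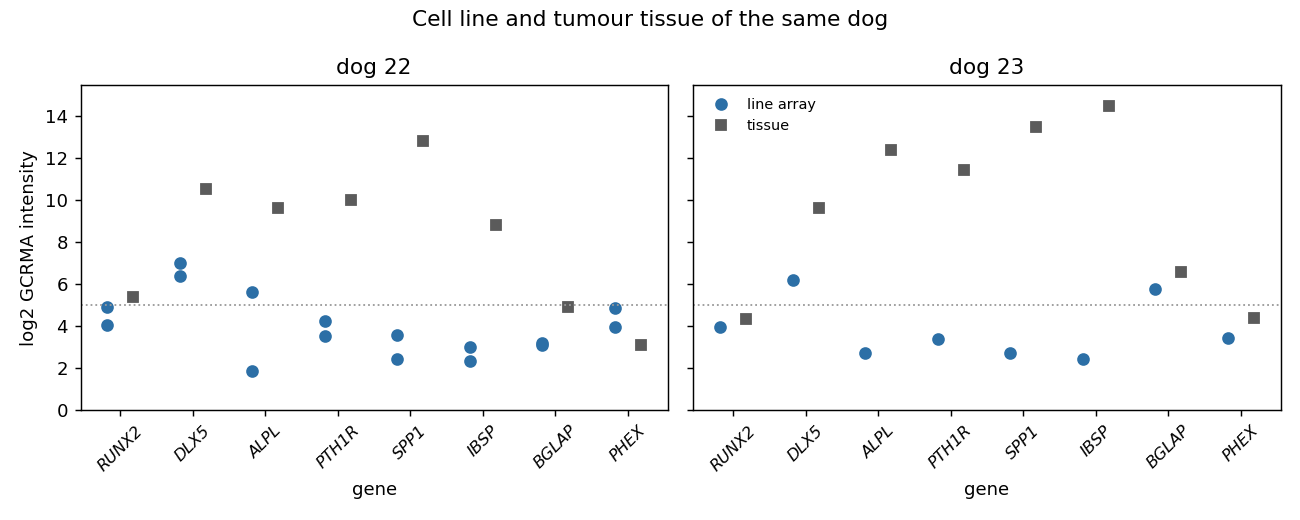
The log2 GCRMA intensity (y axis) of each gene (x axis) is plotted for the line arrays (circles, 2 for dog 22) and the tissue (squares) of dogs 22 and 23, with a dotted line at log2 5. From DLX5 to IBSP every square stands above its circles in both dogs, and the circles of ALPL in dog 22 lie 3.77 apart.

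The 6 tissues differed among themselves. Tissue 2 was lowest of the 6 in RUNX2, DLX5, ALPL, PTH1R and IBSP, but its SPP1, at 11.65, was close to that of tissue 1. Tissue 6 was highest in ALPL, PTH1R, IBSP and BGLAP, and tissue 3 in SPP1 and PHEX. IBSP spanned 6.67 to 14.50. Tissue 2 had an endothelial list mean of 9.33 and a macrophage list mean of 8.53, and tissue 6 had 6.64 and 7.50. Osteoclast list means were 9.22 and 10.90. The actin 3′ minus 5′ difference was 2.72 in tissue 2 and 1.27 in tissue 6. What part these differences had in the tissue order was not tested.

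Genes known to act beside the set moved in part. Of 20 other osteoblast transcription factors 14 were tested, and 6 were lower in primary lines than in tissues and none higher, with a median of -1.05. Over all genes tested 9.06% were lower. MEF2C, a MADS-box factor, stood at 4.64 ± 1.64 in primary lines (SD, n = 24) and 9.42 ± 1.21 in tissues (n = 6), a difference of -4.78 (SE 0.71, adjusted p = 5.23e-06). MEF2C also acts in endothelial and myeloid cells. TWIST1, a helix-loop-helix factor that holds back osteoblast maturation, was lower by -2.85 (SE 0.67, adjusted p = 0.00223). MSX2, a homeobox factor of osteoblast precursors, was at 6.56 ± 1.56 in primary lines and 7.68 ± 0.82 in tissues and missed the threshold (adjusted p = 0.25). MSX2 was detected in 21 of 24 primary lines, as DLX5 was.

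Of 15 receptors and membrane proteins of osteoblasts other than PTH1R, 9 were tested and none was called in limma, with a median of 0.02. In this list CDH11, FGFR2, GJA1 and LRP6 were each detected in at least 22 of 24 primary lines. LRP5 was detected in 20 and FGFR1 in 17. Another 5 genes of the list failed the filter as dim and reached at most 4.37 in a primary line. PTH1R was detected in 3 primary lines, and counts from different probes do not compare levels between genes. Of 12 genes of phosphate and mineral handling 6 were tested and 3 were lower, where 9.06% of all genes tested were lower. Carbonic anhydrase CA2, which osteoclasts also make, differed by -4.84 (SE 1.69, adjusted p = 0.0357) and the ecto-nucleotidase NT5E by -4.52 (SE 0.67, adjusted p = 5.16e-06). ENPP1, which makes pyrophosphate, the inhibitor of mineral that ALPL hydrolyses, differed by -2.30 (SE 0.67, adjusted p = 0.0118) and was still detected in 11 of 24 primary lines.

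Of 12 bone matrix genes outside the set, among them collagens and the enzymes that process collagen, 10 were tested and 2 called, where 1148 of all 7849 genes were called. Of these, 1 was higher (LOX, the collagen crosslinking enzyme, by 3.41, SE 0.68, adjusted p = 0.000408) and 1 lower (P3H1, a collagen prolyl hydroxylase, by -1.35, adjusted p = 0.00415). SPARC, osteonectin, stood at 13.45 ± 0.40 in primary lines and 13.77 ± 0.18 in tissues, a difference of -0.31 (SE 0.17, adjusted p = 0.205). Of 7 osteocyte genes 2 were tested. CAPG, an actin-capping protein, was higher in primary lines by 1.499 (SE 0.24, adjusted p = 2.08e-05) and PDPN, podoplanin, was not called at 0.57 (adjusted p = 0.657). SPARC and CAPG lie close to the top of the scale, and compression of the signal there was not tested.

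Markers of other cell types moved in part beside these genes. Of the tested genes, 3 of 5 osteoclast and 6 of 7 endothelial genes were lower in primary lines. By the same rule 9.06% of all genes tested were lower, a share to set beside each list here. The endothelial list mean was 3.39 to 4.20 in metastatic lines, 2.77 to 8.61 in primary lines and 6.42 to 10.46 in tissues. Primary line 4 alone set the top of the primary range, and primary line 5 was next at 3.97. In the cartilage list 2 of 5, in the adipocyte list 3 of 5 and in the neutrophil list 2 of 3 tested genes were lower, and in the fibroblast list 0 of 8 were called. Some endothelial, cartilage, adipocyte and neutrophil genes were detected in no line and passed the filter on dim probe sets through the tissues alone. The part of these markers in the osteoblast gene differences was not tested.

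Among the primary lines the labels of breed, sex and survival were compared, and none of the 7 genes was called in limma. Between 10 Rottweiler and 7 Golden Retriever lines, in a fit that also held sex, 0.0255% of all genes passed, 2 genes, and at an unadjusted p under 0.05 the count was 2 of the 7 genes and 850 of all genes. RUNX2 ran from 3.77 through a median of 4.90 to 6.28 in Rottweiler lines and from 3.50 through 3.65 to 4.48 in Golden Retriever lines. It was detected in 5 of 10 Rottweiler lines and 0 of 7 Golden Retriever lines, with a difference of 1.15 (SE 0.34, adjusted p = 0.312). SPP1 ran from 2.77 through 5.20 to 9.68 in Rottweiler lines and from 2.74 through 3.21 to 5.38 in Golden Retriever lines, and was detected in 5 of 10 and 1 of 7. Its difference of 2.48 (SE 1.13) had an adjusted p of 0.446. Within title prefix 2 none of the 7 genes was called either.

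Between 13 male and 10 female lines 0% of all genes passed, at an unadjusted p under 0.05 the count was 0 of the 7 genes and 319 of all genes. Against log2 of the survival label in 11 lines with the treatment label SOC alone, 0% of all genes passed, and 1 of the 7 genes and 392 of all genes had an unadjusted p under 0.05. That gene was DLX5, whose level fell by 0.56 per doubling of the survival label (SE 0.17, adjusted p = 0.898). No unit of survival was given.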

How the data were processed

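Per the submitters' processing notes the authors used GCRMA to make the deposited intensities, with no version or settings named. The range of the deposited intensity values showed a linear scale, so log2 was computed here, with a floor at 1 that altered no value. Control probe sets (175 of 43035) were left out, and symbols came from the platform annotation: 29254 probe sets had 1 symbol, 439 several and 13167 were not listed. The annotation's gene identifiers matched the UU_Cfam_GSD_1.0 gene table for 27680 probe sets, and that table was used for names and neighbours only, since the files name no build. The probe set with the highest mean stood for each gene.

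Metastatic lines, primary lines and tissues shared 1 fit in limma 3.58.1 (lmFit and eBayes, R 4.3.3), with Benjamini-Hochberg adjustment over 7849 genes. The fit takes 1 spread per gene for all groups. Where tissues spread more than lines, its SE and p do not measure the spread between tissues. A call needed an adjusted p under 0.05, and at least a 2-fold change in comparisons with tissues. All adjusted p-values printed are from limma unless a permutation is named. Correlations used two-sided permutation tests of 100000 draws. The fit and the permutation were tested on simulated data with 200 changed genes and known correlations. Alternatives were the filter, normalization, offset, probe set rule, array weights, the title prefix, females alone, dog as a block and each replicate left out. Leaving out primary lines 5 and 9 or 4 and 7, either array of dog 22 alone, and bounds at other detection levels were added after seeing the data.

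Line and tissue are paired in dogs 22 and 23 by the labels. The replicate numbers follow accession order and pair nothing. The genes and the 12 lists of other genes were chosen with earlier results of these data known. The named genes were the 9 of the set, at most the 3 called genes of each list with the largest difference, list genes needed beside a result, and the 3 genes most like DLX5 and SPP1. FGFR1, FGFR2, GJA1, LRP5, LRP6, MSX2, OMD, SPARC, COL1A1, COL1A2, PDPN, MEPE, DMP1, CTSK and ITGB3 are list genes named with their values in view.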

Additional observations from a re-analysis of the deposited data

Results flagged for a closer look

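DLX5 in tissue 2 was flagged because it lay far from the other 5 tissues. It read 6.39, where the others read 9.39 to 10.69, and its gap to the nearest tissue was 0.698 of the whole range, over Dixon's critical value for 6 samples. Of 16 ends tested over 8 genes 1 was flagged, and chance flags about 1 group in 20. Without tissue 2 the difference between primary lines and tissues in DLX5 was -3.51, the largest of the values obtained by leaving out 1 sample.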

How the results depend on the processing

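ALPL and IBSP kept their direction and call in both comparisons with tissues under every alternative run. In primary lines against tissues (5 of 7 genes and 1148 of all genes called), 493 genes were called with title prefix as a covariate, 707 in females alone and 251 within title prefix 3, where 3 of the 7 genes kept their call; DLX5 and PTH1R did not. In metastatic lines against tissues (591 genes), 205 were called with title prefix as a covariate and 56 in females alone, where 3 of the 7 genes were called. SPP1 (-8.00, adjusted p = 0.139) and DLX5 (-4.42, adjusted p = 0.179) were not, and that fit held 1 metastatic line. Leaving out 1 sample gave 339 to 611 genes, 339 without metastatic line 1. With the 1 gene called between metastatic and primary lines, 0 were called with the filter at log2 7, with probe sets chosen by interquartile range and in females alone, 2 with intensity plus 16, 4 with array weights, 23 without primary lines 4 and 7, and 0 to 24 without 1 metastatic line, 24 without line 2. RUNX2 turned there to 0.0068 after quantile normalization and 0.062 in females alone, with a range of -0.27 to 0.12 when 1 line was left out. BGLAP turned to -0.0044 with intensity plus 16 and ranged from -0.26 to 0.52, and IBSP turned to 0.025 without primary lines 5 and 9 and ranged from -0.30 to 0.11. None of these was called. Breed (2 genes) gave 0 without the filter and 1 each after quantile normalization and within title prefix 2. The cause of these changes was not tested. With dog as a random replicate block 1079 genes and the same 5 of the 7 were called in primary lines, DLX5 at -2.92. Bounds rest on the detection level: for SPP1 the bound in primary lines was 6.36 at log2 5 and 4.97 at log2 7.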
